A study of Mus musculus with 15 samples.

Results

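The expression of fibroblast RNA from the source TAF-tib48, which the labels call resistant, was compared with that of the source NSF, which they call sensitive. The comparison rests on 6 of the 15 arrays of the study, TAF-tib48 replicates 1 to 3 and NSF replicates 1 to 3, and covers every gene that could be tested. Each array was a 2-colour Agilent whole-genome array on which the Cy5 dye marked amplified total RNA of a mouse source and the Cy3 dye marked a commercial universal mouse reference RNA, and the dyes were not swapped. The remaining 9 arrays held TAF-el4 and TAF-tib42 (resistant) and TAF-tib6 (sensitive), 3 each. The title of the study speaks of fibroblasts associated with tumours that do not respond to treatment against VEGF. TAF is read here as tumour-associated fibroblast, and the labels give neither the meaning of NSF and tib48 nor a strain, age, passage or treatment. Nothing in them tells if replicates were grown or taken independently, so the p-values below reflect array-to-array spread only, possibly technical.

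Fibroblasts make and remodel the extracellular matrix and are a source of growth factors, chemokines and cytokines in tumours. VEGF drives the growth of blood vessels, and fibroblasts can supply other angiogenic ligands as well as signals that recruit myeloid cells. Serum amyloid, complement and neutrophil chemokine genes are typical targets of NF-kappaB and C/EBP transcription factors in activated fibroblasts, whereas immediate early genes such as Fos respond within minutes to growth factors and handling.

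Levels are given as log2 of Cy5 over Cy3, so that 0 means the level of the reference, and a difference between 2 sources is a log2 fold change (1 is a 2-fold change). Median Cy5 intensity lay between 174.702 and 285.931 over the 15 arrays against a background of 52 to 56, and 89.6% to 95.8% of probes were well above background. No 2 arrays held identical values. Ratios of NSF arrays correlated with each other over genes at 0.9799 to 0.9816 and those of TAF-tib48 arrays at 0.9601 to 0.9755, with the lowest values for replicate 3. The slide numbers fall into 3 consecutive runs, which may mark batches. All NSF arrays were in run 1, TAF-tib48 replicate 1 was in run 2 and its replicates 2 and 3 were in run 3, so the pair shares no run and has no within-run value. Runs 1 and 2 are linked only by TAF-el4, with replicates 1 and 2 in run 1 and replicate 3 in run 2. Runs 2 and 3 are linked only by TAF-tib48. A fit with the slide run as a block thus rests on few arrays. A call lost under it can reflect lower precision or a difference between runs, which cannot be told apart here. Precision is limited by how few arrays there are.

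The labelled cell type was checked against 14 fibroblast markers. All 14 were well above background on the 3 arrays of both sources. The collagen genes Col1a1 and Col1a2, the matrix genes Lum, Fn1 and Postn and the receptor Pdgfrb were not called, with differences between -0.14 and 0.12. Of the other markers, Dcn, Twist1, Pdgfra, Col3a1, Thy1 and Fap were lower in TAF-tib48. The other probe of Col3a1 differed by -0.16. The call of Col3a1 was lost with the slide run as a block (-0.39), and that of Fap (-0.17) in 6 settings, among them that block, median centring and leaving out TAF-tib48 replicate 3 or NSF replicate 1 or 3 (-0.22 to -0.09). Vim (0.40) and S100a4 (0.62) were higher, and their sign turned with the slide run as a block (-0.35 and -0.17). S100a4 was also not called from the Cy5 channel alone (0.15). Vim was not called in 10 further settings (0.03 to 0.41), including the scanner's own ratio, median centring, the fit of the 6 arrays alone and leaving out TAF-tib48 replicate 2 or 3 or NSF replicate 1 or 2. A lower level in bulk RNA cannot be told apart from a smaller share of cells that make it.

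A gene was called at a Benjamini-Hochberg adjusted p under 0.05 in limma. Of 31253 genes tested 8179 were called between TAF-tib48 and NSF (26.2%), 3661 higher (11.7%) and 4518 lower (14.5%) in TAF-tib48. The median difference over all genes was -0.0046. After median centring in place of loess the split was 2373 higher and 5384 lower, and with the slide run as a block 650 higher and 1391 lower. A change of at least 2-fold was met by 302 called genes (0.966%), of which 43 were higher (0.138%) and 259 lower (0.829%). The arrays of the 2 sources did not overlap for any of these 302 genes, as they did not for 5864 genes with higher (18.8%) and 6608 with lower values (21.1%) among all tested. Differences of at least 2-fold thus lay mostly on the lower side.

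**Figure D1:**
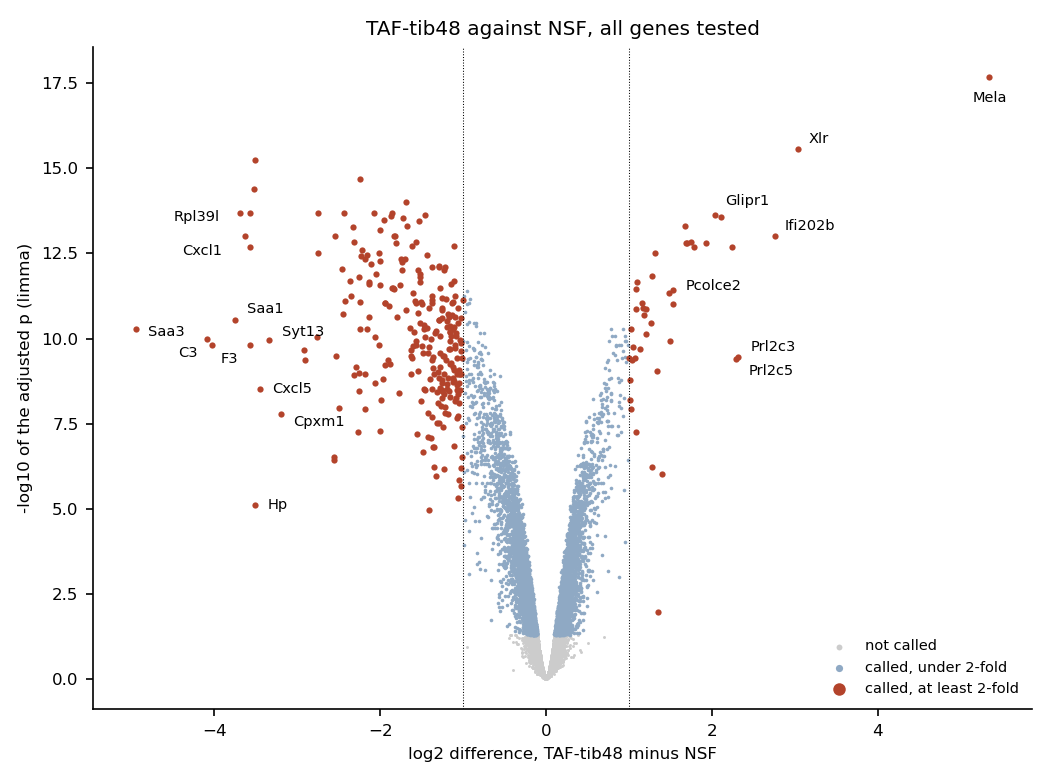
Log2 difference of TAF-tib48 minus NSF (x axis) against -log10 of the limma adjusted p (y axis) for the 31253 genes tested. Each point is a gene, dotted lines mark a 2-fold change, and 259 of the 302 red points lie on the left.

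Genes higher in TAF-tib48 were led by Mela, whose array annotation is melanoma antigen. Its log2 ratios were 0.81, 0.75 and 1.15 on the TAF-tib48 arrays and -4.50, -4.51 and -4.33 on the NSF arrays. Every TAF-tib48 array was thus near or above the reference RNA and every NSF array far below it. The difference was 5.35 (SE 0.0769, adjusted p = 2.1e-18), or 40.7-fold, by a single probe that was saturated on 1 TAF-tib48 array. Xlr, an X-linked gene first described in lymphocytes, was at 0.03, -0.12 and -0.16 in TAF-tib48 and at -3.12, -3.07 and -3.20 in NSF. It differed by 3.04 (SE 0.0601, adjusted p = 2.8e-16), and by 2.65 with its other probe. Ifi202b, an interferon-inducible gene of the p200 family, was at -2.51, -2.36 and -2.27 against -5.17, -5.21 and -5.04, a difference of 2.76 (SE 0.089). Both sources were below the reference for Ifi202b, and TAF-tib48 was 6.76-fold above NSF.

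The proliferin genes Prl2c3 and Prl2c5, which code for secreted proteins of the prolactin family with a known angiogenic activity, differed by 2.32 and 2.30 (SE 0.137 for both). The 2 genes are near-identical, and their signals may be shared. Prl2c3 was at 4.0, 4.19 and 3.38 in TAF-tib48 and at 1.42, 1.53 and 1.67 in NSF, so all 6 arrays were above the reference. Genes known from blood vessel cells were also among the 12 highest. Emcn, the endothelial sialomucin endomucin, was at 2.13, 2.15 and 1.85 against 0.23, 0.26 and 0.28 (difference 1.79, SE 0.0614, adjusted p = 2.1e-13). Ptprb, a receptor phosphatase of endothelial cells, was at 2.75, 2.84 and 2.69 against 1.04, 0.88 and 1.13 (difference 1.75, SE 0.0581). Arrays that do not overlap between the sources were a condition for a place among these 12. The others included Glipr1 (2.04), the monocarboxylate transporter family gene Slc16a11 (1.93), the matrix protein Vit (1.70) and Pcolce2, an enhancer of procollagen processing (1.53). Gcnt1, a glycan-branching enzyme, differed by 1.67, but its other probes differed by 0.29 and -0.01.

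Genes lower in TAF-tib48 were led by Saa3, a serum amyloid of the acute phase that fibroblasts and macrophages can make. Saa3 was at -2.09, -2.05 and -0.98 on the TAF-tib48 arrays and at 2.76, 3.44 and 3.53 on the NSF arrays. All TAF-tib48 arrays were below and all NSF arrays above the reference, and the difference was -4.95 (SE 0.255, adjusted p = 5.4e-11), a level 30.8-fold lower. The neutrophil chemokine Cxcl1 was at -1.23, -1.05 and -0.60 against 2.59, 2.75 and 2.67 (difference -3.63, SE 0.117, adjusted p = 1.0e-13). Il6, the inflammatory cytokine, was at 1.60, 1.31 and 1.82 against 5.0, 5.23 and 5.21 (difference -3.57, SE 0.1, adjusted p = 2.0e-14). Il6 thus stayed above the reference in TAF-tib48, at a level 11.9-fold below that in NSF. F3, tissue factor, which starts blood coagulation, was at -0.18, -0.20 and 0.99 against 3.85, 3.64 and 3.84 (difference -3.57, SE 0.199), and its other probe differed by -3.44. The chemokine Cxcl5 (-3.45) and the carboxypeptidase family gene Cpxm1 (-3.20) were lower as well.

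Hp, the haemoglobin-binding acute phase protein haptoglobin, differed by -3.51 but with the widest spread of the lowest genes named here (SE 0.44, adjusted p = 7.8e-06). It was at -1.16, -1.05 and 1.58 in TAF-tib48 and at 3.22, 3.26 and 3.41 in NSF, so replicate 3 lay between the other 2 TAF-tib48 arrays and NSF. For 4 of the lowest genes a dimmer probe differed far less. C3, the central complement component, differed by -4.08 and -0.20 by its probes, Saa1 by -3.75 and -0.11, the synaptotagmin Syt13 by -3.34 and -0.15, and the ribosomal protein paralogue Rpl39l by -3.69 and -0.85.

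**Figure D2:**
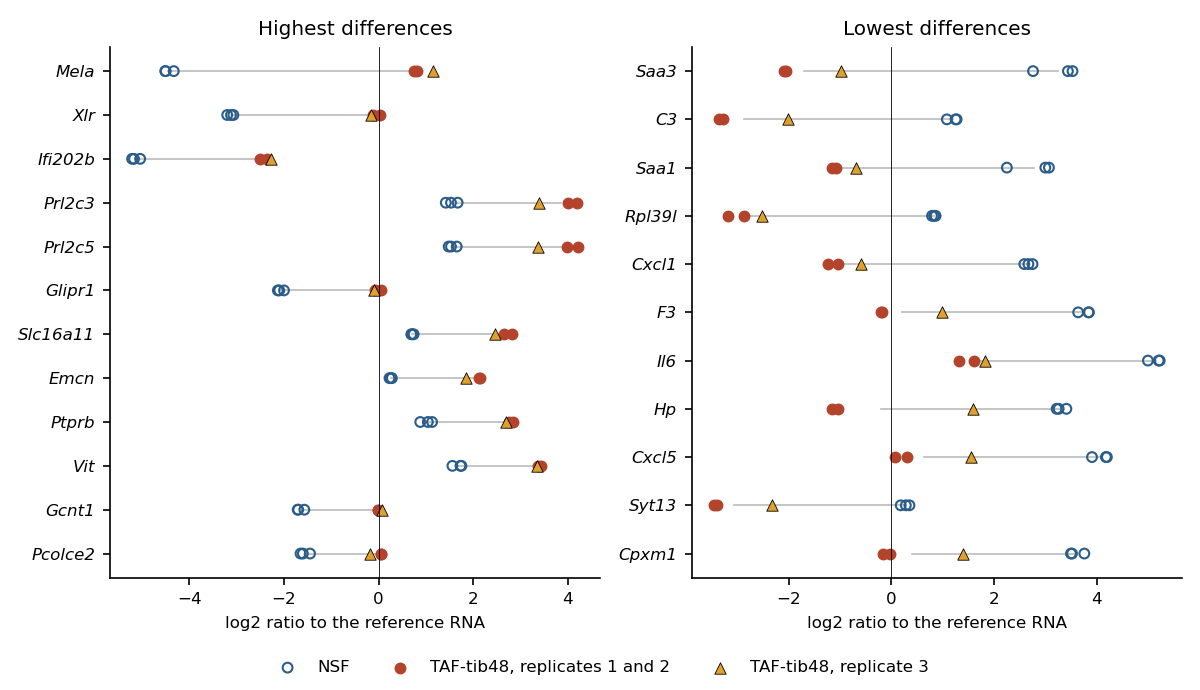
Log2 ratio to the reference RNA (x axis) of the named genes with the highest (left) and the lowest differences (right), 1 row per gene. Open circles are the 3 NSF arrays, filled circles TAF-tib48 replicates 1 and 2, triangles replicate 3, and grey lines join the 2 means. Genes were chosen so that no row overlaps between the sources, and replicate 3 of Hp, at 1.58, lies towards NSF.

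Gene lists were then described by their counts of called members and their median difference, beside 11.7% higher, 14.5% lower and a median of -0.0046 over all genes tested. These comparisons ask which functions of the fibroblasts differ between the sources. The acute phase list had the lowest median of the functional lists, at -1.14. Of its 17 tested members 11 were lower and 0 higher (11 and 0 also at an unadjusted p under 0.05). After Saa3, Saa1 and Hp came the metallothionein Mt2, at -0.75, -0.94 and 0.06 against 1.69, 1.57 and 1.88 (difference -2.25, SE 0.158). Its arrays did not overlap, and 1 NSF array was saturated.

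Of 24 complement genes 8 were lower and 3 higher, with a median of -0.02. The lower genes included proteases of the classical pathway, C1ra (-2.53, SE 0.149) and C1s1 (-2.26, SE 0.144, other probe -1.30), and Cfb, the factor B protease of the alternative pathway (-2.22, SE 0.08). Cfb was at 0.07, -0.18 and 0.17 in TAF-tib48 and at 2.25, 2.13 and 2.36 in NSF. Serping1, the C1 inhibitor, named after its values were seen, differed by -1.97. Hc, complement component C5, was higher (0.78, SE 0.0569).

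Among 27 chemokines 13 were lower and 3 higher (median -0.23). Besides Cxcl1 and Cxcl5, the lymphoid and stem cell chemokine Cxcl12 was at -1.21, -1.27 and -0.21 against 1.89, 2.04 and 2.10 (difference -2.91, SE 0.174), and its other probe differed by -3.30. Cxcl14 was at 0.37, 0.30 and 0.59 against 3.29, 2.98 and 3.25 (difference -2.75, SE 0.077, adjusted p = 2.0e-14). The arrays of both genes lay apart. Ccl9 (0.55) and Ccl25 (0.26) were higher, and Ccl25 lost its call from the Cy5 channel alone (0.13) and with the slide run as a block (0.15). Of 19 cytokines and colony-stimulating factors 9 were lower and 3 higher (median -0.10), and 5 were lower with the slide run as a block. The lower ones were Il6, the alarmin Il33 (-1.52, SE 0.0605), the stem cell factor Kitl (-1.14, other probe -0.13), Csf1, the macrophage growth factor (-0.54), and 5 others. Il34, the other ligand of the Csf1 receptor, was higher at 0.69, 0.62 and 0.50 against 0.03, -0.01 and -0.07 (difference 0.62, SE 0.0492, adjusted p = 2.2e-08).

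Promoters of the inflammatory genes were searched for motifs of the factors named above, in RefSeq sequences of build GRCm38.p6 that run from 250 bases before to 50 after the start of a gene. Of the genes tested 13100 had such a sequence. The NF-kappaB motif (GGGA, any base, then TTTCC), on either strand, was in 0.511% of these 13100 promoters and in 4 of 137 promoters of genes called lower by at least 2-fold (2.92%), namely Cxcl1, Il6, Nfkbia and Tifa. The last 2 were named after their values were seen. Nfkbia, the NF-kappaB inhibitor, was at -1.49, -1.42 and -1.19 against 0.23, 0.36 and 0.23 (difference -1.64), and Tifa differed by -1.01. The C/EBP motif TTGCNNAA was in 11.4% of the promoters of genes tested and in 10 of 14 acute phase genes that had a sequence (71.4%), called or not. It was in 26 of the 137 promoters of lower genes (19%) and in 4 of 14 complement promoters (28.6%). The NF-kappaB motif was in 0 of the 14 acute phase and 0 of the 14 complement promoters. For a motif found in 0.511% of promoters, a count of 0 in 14 cannot show that sites are lacking. It was in 3 of 20 chemokine promoters and in 2 of 14 promoters of cytokines and colony-stimulating factors. Promoters with both motifs numbered 25 of 27025 in the table. Il6 is among them, since its sequence below also holds the C/EBP motif on the opposite strand, left in lower case. The 250 bases before the start are shown for 4 of these genes to let their sites be seen, with the motif in capitals: the NF-kappaB motif for Cxcl1 (chr5:90890995-90891244, plus strand), Il6 (chr5:30012864-30013113, plus strand) and Nfkbia (chr12:55492648-55492897, minus strand), and the C/EBP motif for Saa3 (chr7:46715677-46715926, minus strand). Each is written 5′ to 3′ along its gene.
Cxcl1: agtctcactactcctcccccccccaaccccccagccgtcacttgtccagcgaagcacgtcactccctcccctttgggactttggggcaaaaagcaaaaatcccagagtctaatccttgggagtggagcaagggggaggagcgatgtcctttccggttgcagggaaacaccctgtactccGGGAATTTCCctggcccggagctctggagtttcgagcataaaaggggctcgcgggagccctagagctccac
Il6: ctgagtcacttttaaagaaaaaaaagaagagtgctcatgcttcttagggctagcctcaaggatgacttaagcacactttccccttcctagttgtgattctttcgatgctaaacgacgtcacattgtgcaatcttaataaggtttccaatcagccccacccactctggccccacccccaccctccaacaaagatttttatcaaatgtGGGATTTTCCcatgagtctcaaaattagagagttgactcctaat
Nfkbia: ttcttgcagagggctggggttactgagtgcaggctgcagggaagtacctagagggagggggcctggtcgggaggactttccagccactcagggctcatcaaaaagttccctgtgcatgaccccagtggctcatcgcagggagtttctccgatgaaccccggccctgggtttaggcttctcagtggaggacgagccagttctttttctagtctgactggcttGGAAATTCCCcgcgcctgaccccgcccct
Saa3: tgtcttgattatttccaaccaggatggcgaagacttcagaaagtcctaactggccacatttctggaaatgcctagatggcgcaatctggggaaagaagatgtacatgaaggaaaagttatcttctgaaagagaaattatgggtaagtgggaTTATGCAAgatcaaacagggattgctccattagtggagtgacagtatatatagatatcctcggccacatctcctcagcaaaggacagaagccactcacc
Counted from the start of the gene, the motif began at base -71 in Cxcl1, -44 in Il6, -29 in Nfkbia and -99 in Saa3, and in Nfkbia and Saa3 it lay on the opposite strand. A match is a description of these letters, and binding was not measured.

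Of 23 collagens 14 were lower and 2 higher (median -0.30), and 8 were lower with the slide run as a block. The short-chain collagen Col8a1 was at 0.13, 0.18 and 0.52 against 1.77, 1.75 and 1.73 (difference -1.47, SE 0.0742, adjusted p = 4.0e-11). Col6a1, of microfibrillar collagen VI, differed by -1.26 and the fibril-associated Col12a1 by -1.07, or -1.61 at most among the alternatives. The fibrillar Col3a1 differed by -0.65 on spots saturated on all NSF arrays, and by -0.16 with its other probe. Col15a1, a collagen of basement membrane zones, was higher at 1.58, 1.38 and 1.38 against 0.88, 0.76 and 0.90 (difference 0.61, other probe 0.15). The main fibrillar pair Col1a1 and Col1a2 stayed uncalled, and 7 of the 23 collagens in all were not called.

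Of 46 matrix glycoproteins and proteoglycans 27 were lower and 5 higher (median -0.29), with 19 lower and 3 higher under the slide run block. The collagen-binding proteoglycan Dcn was at -2.93, -3.07 and -2.28 against -0.33, 0.19 and 0.12 (difference -2.76, SE 0.147, adjusted p = 8.8e-11). The adhesion-modulating Tnc was at -0.33, -0.06 and -0.16 against 2.17, 2.09 and 2.18 (difference -2.33, SE 0.0715), but its other probe differed by -0.58. The basement membrane genes Lama4, a laminin chain, and Nid2 both differed by -2.25. Vit (1.70) and Matn2 (0.71) were the highest of the 5 that were higher. Of 18 genes that process and cross-link collagen 9 were lower and 2 higher (median -0.14). They included lysyl oxidase, Lox (-1.11, SE 0.0743), the prolyl hydroxylase P4ha2 (-1.03, from 2 NSF arrays), the transglutaminase Tgm2 (-0.83, other probes 0.00 and 0.06) and the procollagen protease Bmp1 (-0.74). Pcolce2, which enhances that protease, was higher at 0.04, 0.05 and -0.19 against -1.65, -1.45 and -1.60 (difference 1.53, SE 0.065, adjusted p = 3.7e-12), and so was Loxl3 (0.44), which was not called with the slide run as a block (0.43).

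Among 31 matrix proteases and inhibitors 15 were lower and 4 higher (median -0.17), with 7 lower under the slide run block. The gelatinase Mmp2 (-1.25) and the aggrecanases Adamts5 and Adamts1 (-0.90 for both) were lower. Mmp11 was higher at 1.76, 1.42 and 1.82 against 0.66, 0.61 and 0.65 (difference 1.03, SE 0.0786), as was the inhibitor Timp3 (0.59). Of 15 integrins 3 were higher and 3 lower. The collagen receptor Itga11 was at 2.35, 1.86 and 2.95 against 4.29, 4.31 and 4.58 (difference -2.01, SE 0.17), whereas Itga6 (0.86) and Itgb4 (0.87), which pair as a laminin receptor, were higher. A dimmer probe of Itgb4 differed by 0.00 and another by 0.98.

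TGF-beta signals raise matrix and contractile genes in fibroblasts. Of 22 genes of the pathway and its targets 13 were lower and 3 higher (median -0.28), and 8 were lower with the slide run as a block. The target Ccn2, also called connective tissue growth factor, was at 1.86, 1.83 and 1.40 against 3.00, 3.12 and 3.10 (difference -1.38, SE 0.0952, adjusted p = 3.0e-09). Ltbp2, a latency protein family member, differed by -1.47 from 2 NSF arrays and the receptor Tgfbr2 by -0.99, with -0.17 for its other probe. The coreceptor Eng, endoglin, was higher (0.55, SE 0.0581). Of 22 myofibroblast and contractile genes 9 were lower and 1 higher (median -0.09), and 5 were lower with the slide run block. Smooth muscle myosin Myh11 (-0.82) and the YAP target Ccn1 (-1.38) were among them. Acta2, the usual myofibroblast marker, was not called at -0.05 (adjusted p = 0.863), was called lower with the slide run as a block (-0.90) and took the other sign with scaled log ratios (0.16).

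Among 28 genes of the BMP pathway and the Id family 13 were lower and 5 higher (median -0.11). The Id genes, targets of BMP that block bHLH factors, were lower. Id1 was at -1.23, -1.02 and -1.52 against 0.09, 0.07 and 0.00 (difference -1.31, SE 0.0833), Id4 differed by -2.0 (SE 0.0829) and Id2 by -1.08. Fst, the activin trap follistatin, was at 0.33, 0.32 and 0.79 against 2.98, 2.78 and 3.05 (difference -2.45, SE 0.094, adjusted p = 9.1e-13). The BMP antagonist Grem1 was higher at -0.88, -0.82 and -0.79 against -1.41, -1.32 and -1.27 (difference 0.50), and lost its call with the slide run as a block (0.31). In the Wnt pathway 12 of 33 genes were lower and 8 higher, with 5 lower and 3 higher under that block. The antagonist Sfrp1 was lower (-1.02, or -2.41 at most among the alternatives), and the ligand Wnt2 (0.69) and the target Ccnd1 (0.78) were higher.

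Angiogenic ligands are of interest here because the study is about treatment against VEGF. Vegfa itself was at 0.06, -0.07 and 0.10 in TAF-tib48 and at 0.10, 0.11 and 0.12 in NSF. By this brightest probe the arrays lay close together, and Vegfa was not called in limma (-0.08, SE 0.0478, adjusted p = 0.234). Its dimmer probes differed by -0.17 (SE 0.052) and -0.51 (SE 0.071). Vegfa was called lower with the mean of all its probes (-0.25) and after median centring (-0.20). It took the other sign with the slide run as a block (0.09) or from the Cy5 channel alone (0.03). Of 23 genes of the VEGF family and other angiogenic ligands 14 were lower and 2 higher (median -0.32), with 10 lower and 2 higher under the slide run block. Vegfc, the lymphatic VEGF, was at -0.64, -0.69 and -0.66 against 0.96, 1.05 and 1.05 (difference -1.69, SE 0.0436, adjusted p = 1.0e-14). The heparin-binding growth factor Ptn was lower (-2.29, SE 0.142), and the list also holds Il6 and Cxcl12. The 2 higher members were angiopoietins or of their family. Angpt2, a Tie2 ligand that loosens vessels, was at 2.37, 2.07 and 3.05 against 1.18, 1.0 and 1.1 (difference 1.40, SE 0.149, adjusted p = 9.5e-07), with replicate 3 highest. Angptl2 differed by 0.69 (SE 0.0466).

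PDGF ligands act on mesenchymal cells through Pdgfra and Pdgfrb. Pdgfc was at -0.08, -0.06 and -0.36 in TAF-tib48 and at -0.86, -0.79 and -0.91 in NSF. All TAF-tib48 arrays were higher, and the difference was 0.69 (SE 0.0645, adjusted p = 2.0e-07), or 1.61-fold, with 0.73 for the other probe. Pdgfa was at 0.65, 0.69 and 0.45 against 0.42, 0.39 and 0.42 (difference 0.18, SE 0.0527, adjusted p = 0.0145). The call of Pdgfa was lost after median centring (0.06), with the slide run as a block (0.25), with the mean of all probes (0.12), in a fit of the 6 arrays alone (0.18) and without TAF-tib48 replicate 1 (0.16) or 2 (0.14) or NSF replicate 2 (0.17). The receptor Pdgfra was at -0.26, -0.26 and 0.18 against 1.32, 1.30 and 1.29 (difference -1.42, SE 0.0821), but its other probe differed by -0.08. The other 4 of the 7 PDGF genes were not called, with differences from -0.09 to 0.16.

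Of 13 angiogenesis inhibitors 5 were lower and 2 higher, and 2 were lower with the slide run as a block. Thbs1, a matrix inhibitor of vessel growth, was at 1.70, 1.74 and 1.92 against 3.77, 3.46 and 3.68 (difference -1.85, SE 0.0776), and its other probes differed by -1.63 and -1.20. Timp3, counted above among the protease inhibitors, was higher. In the IGF axis 5 of 12 genes were lower and 1 higher, with 3 lower under the block. They were led by Igfbp2 (-1.83, SE 0.0771), an IGF carrier, and Pappa (-1.45), a protease that frees IGF from carriers. The EGF receptor Egfr was at -0.76, -0.67 and -0.10 against 1.54, 1.43 and 1.54 (difference -2.01, SE 0.113), while 3 dimmer probes differed by -0.53, -0.33 and -0.27. It was 1 of 3 lower genes among 9 of the EGF family, of which 0 were higher (0 higher and 4 lower at an unadjusted p under 0.05), and 1 was lower with the slide run as a block, with the scanner's ratios or without NSF replicate 2.

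**Figure D3:**
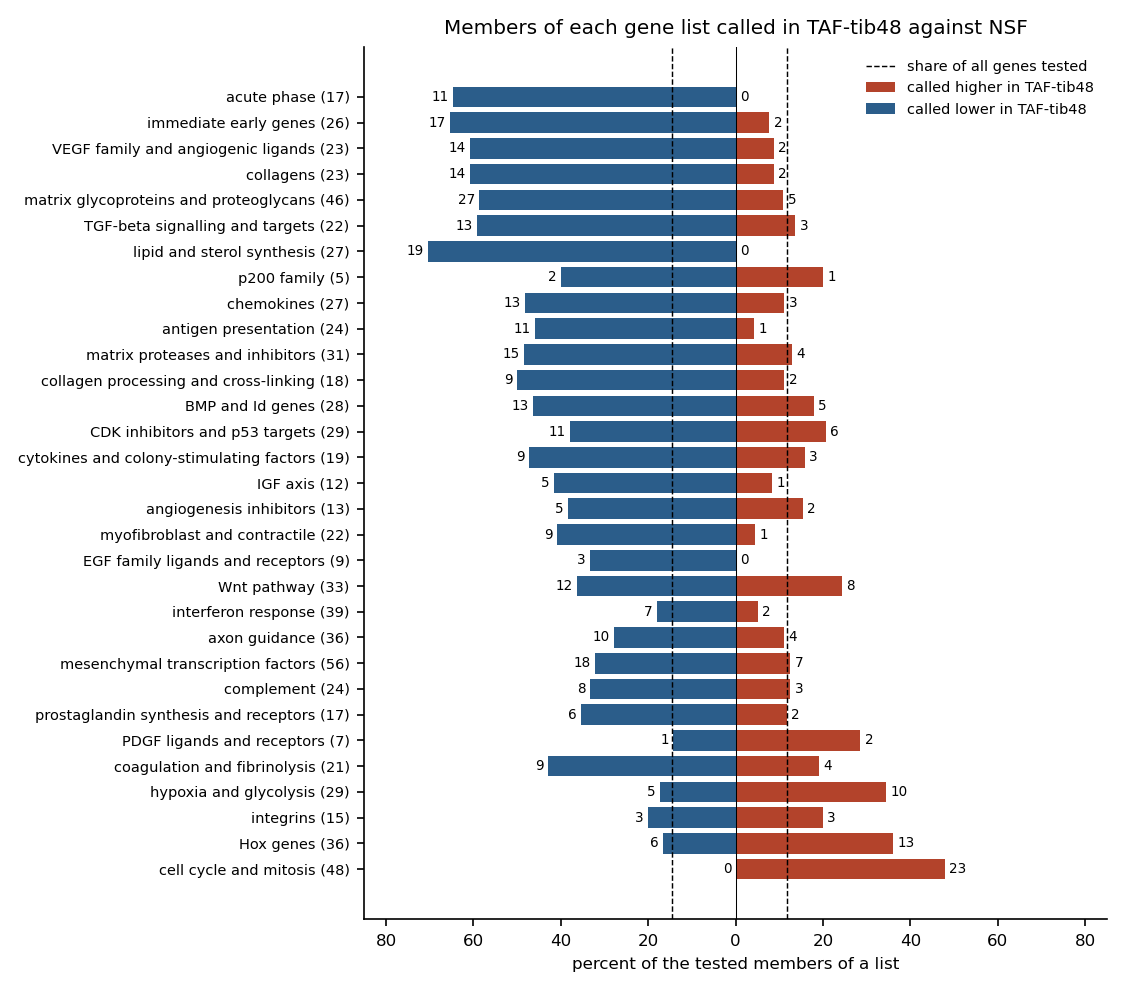
Percent of the tested members of each functional list (number in brackets) that were called higher (red, to the right) or lower (blue, to the left) in TAF-tib48, with the counts beside the bars. Lists are ordered by their median difference, and dashed lines mark 11.7% and 14.5%, the shares of all genes tested. The acute phase list is at the top and the cell cycle list at the bottom.

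Immediate early genes were lower, with 17 of 26 lower and 2 higher and a median of -0.53. Fos, a subunit of AP-1, was at -3.33, -3.30 and -3.19 against -0.67, -0.81 and -1.01 (difference -2.45, SE 0.117, adjusted p = 1.9e-11). The nuclear receptor Nr4a1 (-2.18), the zinc finger factor Egr1 (-1.88) and Dusp6, a phosphatase induced by ERK (-1.73, SE 0.0666), were lower too. The medians of this list on the 3 TAF-tib48 arrays, each minus the NSF mean, were -0.51, -0.53 and -0.52. Sterol and fatty acid synthesis genes, which SREBP factors control together, were lower by smaller amounts. Of 27 genes 19 were lower and 0 higher (20 and 0 at an unadjusted p under 0.05), with a median of -0.27 and 12 lower under the slide run block. Dhcr7, which makes cholesterol in its last step, was at -0.87, -1.02 and -0.89 against 0.10, 0.07 and 0.00 (difference -0.98, SE 0.0465, adjusted p = 1.7e-11), with -0.18 for its other probe. The enzymes Hmgcs1 (-0.84), Sc5d (-0.81) and Idi1 (-0.78) followed, and the other probes of Hmgcs1 and Idi1 differed by -0.10 and -0.17.

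Cell cycle and mitosis genes lay higher in TAF-tib48, but on 2 of its 3 arrays. Of 48 genes 23 were called higher and 0 lower (28 and 0 at an unadjusted p under 0.05), with a median of 0.22. The medians of the list minus the NSF mean were 0.24 and 0.40 on replicates 1 and 2 and 0.01 on replicate 3, where 25 of 48 genes were above the NSF mean. Ccnd1, the cyclin of the start of the cycle, was at 0.36, 0.54 and -0.01 against -0.48, -0.51 and -0.46 (difference 0.78, SE 0.0889). The mitotic kinase Plk1 was at -0.22, -0.02 and -0.66 against -0.81, -0.78 and -0.85 (difference 0.51, adjusted p = 6.9e-04). Cdc20 and Kif20a both differed by 0.50, and Cdc20 on replicate 3 (-0.86) was level with NSF (-0.90, -0.86 and -0.92). The count moved with the setting. It was 37 without TAF-tib48 replicate 3, 15 without replicate 1, 12 without replicate 2, 12 with scaled log ratios, 11 in a fit of the 6 arrays alone, 7 after median centring and 1 with the slide run as a block. Kif20a, Cdc20 and Plk1 lost their calls under that block (0.60, 0.63 and 0.57), and Cdc20 also after median centring (0.39).

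Of 29 CDK inhibitors and p53 targets 11 were lower and 6 higher, with 7 lower and 2 higher under the slide run block. Perp (-1.27), the death receptor Fas (-1.26) and the antiproliferative Btg2 (-0.79) were lower and the kinase Plk2 (0.58) higher. Of 29 hypoxia and glycolysis genes 10 were higher and 5 lower with a median of 0.02. After median centring 2 were higher and 9 lower, and with the slide run as a block 2 were higher and 3 lower. Its highest gene was Slc16a11, given above, and its lowest the vasodilator peptide Adm (-1.16, SE 0.0833).

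Prostaglandin genes were split by enzyme. Ptgis, prostacyclin synthase, was at -0.49, -0.66 and -0.30 against 1.95, 1.93 and 1.98 (difference -2.43, SE 0.0666, adjusted p = 2.0e-14). Ptgs2, the inducible cyclooxygenase, differed by -1.05 and the inducible prostaglandin E synthase Ptges by -0.93. Ptgs1, the constitutive cyclooxygenase, was higher at -0.23, -0.25 and -0.30 against -1.26, -1.21 and -1.21 (difference 0.96, SE 0.0525, adjusted p = 1.2e-10). In all 6 of 17 genes were lower and 2 higher. Coagulation and fibrinolysis genes were lower in 9 of 21 and higher in 4. F3 and Gas6, the ligand of Axl (-2.27, SE 0.194), were lower, and the protein C receptor Procr (0.87) and the plasminogen-binding annexin Anxa2 (0.78) were higher.

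Hox genes keep the position of fibroblasts along the body. Of 36 tested 13 were higher and 6 lower (median 0.03), with 7 and 3 under the slide run block. Hoxa11 was at -0.09, -0.01 and -0.10 against -1.12, -1.14 and -1.20 (difference 1.09, SE 0.0509, adjusted p = 1.4e-11). Hoxa10 (0.91), Hoxc9 (0.84) and Hoxb9 (0.73), all of posterior groups, were higher, and the anterior Hoxb2 (-0.88) and Hoxd4 (-0.58) lower. Hoxd4 lost its call with the slide run as a block (-0.65). Of 56 other mesenchymal transcription factors 18 were lower and 7 higher, with 12 lower and 5 higher under that block. Twist1, a bHLH factor of mesenchyme, was at -0.66, -0.61 and -0.25 against 1.56, 1.51 and 1.58 (difference -2.06, SE 0.0805, adjusted p = 1.3e-12), and its relative Twist2 differed by -1.0. The T-box factor Tbx3 (-1.28) and Prrx2 (-0.87) were lower and the homeobox pair Dlx1 (0.69) and Dlx2 (0.63) higher. Among 36 axon guidance genes 10 were lower and 4 higher. The ephrin receptor Epha4 (-1.22, other probe -0.39) and Sema3c (-1.12, or -2.08 at most among the alternatives) were lower and the semaphorin receptor Plxna2 higher (0.95).

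Interferon response genes stood near the background, with 7 of 39 lower and 2 higher (23.1% called against 26.2% of all genes). Without TAF-tib48 replicate 3 11 were lower and 1 higher, and with the slide run as a block 0 were lower and 2 higher. Zbp1, a nucleic acid sensor, differed by -0.83 (SE 0.14) and the GTPase Iigp1 by -0.80. Oas1a was higher at -0.29, -0.25 and 0.03 against -0.82, -0.87 and -0.95 (difference 0.71). Of 5 p200 genes Ifi202b was higher, Ifi205 (-1.18, other probe -0.04) and Ifi204 (-0.54) lower. With the slide run as a block Ifi204 was not called (-0.27). Of 24 antigen presentation genes 11 were lower and 1 higher, 6 to 7 lower when TAF-tib48 replicate 1 or 2 or NSF replicate 1 or 3 was left out, and 3 with the slide run block. The immunoproteasome subunit Psmb8 (-1.01), the class I heavy chain H2-D1 (-0.63) and its partner B2m (-0.57) were lower.

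Markers of other cell types that such a culture could hold were read in the same way. Endothelial markers were higher in 6 of 10 and lower in 0 (6 and 0 at an unadjusted p under 0.05), with a median of 0.21. Besides Emcn, these were Cdh5, the endothelial cadherin (0.48, other probe 0.21), Egfl7 (0.45), the transcription factor Erg (0.42, other probe 0.12) and 2 others. With the slide run as a block, the scanner's ratios, the authors' table or the Cy5 channel alone 4 were higher. The call of Cdh5 was lost from the authors' deposited table and from the ratios of the scanner (0.43 in both). Pecam1, Kdr, Vwf and Tie1 were not called, with differences from -0.01 to 0.15. The mean log2 ratio of the list lay between 0.46 and 0.54 on the TAF-tib48 arrays and between 0.09 and 0.14 on the NSF arrays, and all 10 markers were well above background on the 3 TAF-tib48 arrays and 9 on the NSF arrays. Whether these cells have a part in the levels of Emcn, Ptprb or Angpt2 was not tested.

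Lymphocyte markers were higher in 6 of 13 and lower in 1, by at most 0.40, with means of -0.66 to -0.55 in TAF-tib48 and -0.73 to -0.70 in NSF. Cd5 (0.29), Lck (0.31) and Cd3g (0.25) each lost the call with the slide run as a block, under which 0 of the list were higher. Macrophage markers were higher in 3 of 10 (means of -1.30 to -1.24 against -1.37 to -1.32), among them Tyrobp (0.35), and the defining Adgre1, Csf1r and Itgam were not called, with differences from -0.04 to 0.03. With scaled log ratios 0 macrophage markers were higher and 2 lower, with the slide run block 0 were called, and without TAF-tib48 replicate 3 1 was higher. Their part in the lower chemokine and complement genes was not tested. Of 10 pericyte and smooth muscle markers 3 were higher, such as Notch3 (0.47), and 3 lower. Keratinocyte markers were higher in 3 of 10 and lower in 1, and adipocyte markers lower in 2 of 8, mainly through the fatty acid carrier Fabp4 (-1.80, other probes -0.53 and -2.39). Skeletal muscle, melanocyte and nerve lists had at most 1 called member each.

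TAF-tib48 was also tested directly against the other TAF sources, to see whether its differences from NSF set it apart from them as well. These contrasts share the TAF-tib48 arrays. It differed in 7451 genes from TAF-el4 (23.8%), in 4462 from TAF-tib42 (14.3%) and in 7714 from TAF-tib6 (24.7%). A call in 1 direction against NSF and each of these sources was made for 573 higher (1.83%) and 552 lower genes (1.77%). Of the 259 genes lower by at least 2-fold against NSF, 217 were also lower than in TAF-el4, 153 than in TAF-tib42, 248 than in TAF-tib6 and 120 than in all 3. In the opposite direction, 5, 36 and 1 of the 259 were higher than in TAF-el4, TAF-tib42 and TAF-tib6. Since these genes were chosen on the same TAF-tib48 arrays, the counts are a description. Of all genes tested 14.1%, 6.63% and 13.2% were lower than in these 3 sources. Of the 43 higher genes 37, 34 and 39 were higher than in TAF-el4, TAF-tib42 and TAF-tib6, beside 9.74%, 7.65% and 11.5% of all genes, and 29 were higher than in all 3.

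Emcn led the higher side. It averaged 2.04 ± 0.17 (SD, n = 3) in TAF-tib48 and 0.05 to 0.26 in the other 4 sources, and exceeded TAF-el4, TAF-tib42 and TAF-tib6 by 1.88, 2.0 and 1.79 (adjusted p = 2.3e-13, 8.8e-14 and 4.0e-13). Pcolce2, the serpin Serpinb6b (1.13 against NSF), Angpt2 and the cGMP-dependent kinase Prkg2 (1.27, other probe 0.02) were also above every other source. Prkg2 was at -1.20, -0.84 and -1.66 in TAF-tib48, so its replicate 3 was nearest to NSF, at -2.46, -2.50 and -2.57.

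On the lower side F3 averaged 0.20 ± 0.68 in TAF-tib48 and 2.97 to 3.78 in the other sources, and fell short of TAF-el4, TAF-tib42 and TAF-tib6 by -3.04, -2.77 and -3.01 (SE 0.199 for each). Hp averaged -0.21 ± 1.55 in TAF-tib48 and lay below the others by -1.94 to -3.68 (adjusted p = 0.00309 to 5.0e-06). On replicate 3, however, Hp was at 1.58, close to the TAF-el4 mean of 1.73. The scavenger receptor Colec12 (-2.24 against NSF), Lama4, Fibin (-2.22) and the plexin domain protein Plxdc2 (-2.13) were also below every other source. The inflammatory genes were not all of this kind. Cxcl1 in TAF-tib48 was not called against TAF-el4 (-0.13, SE 0.117, adjusted p = 0.474) but lay below TAF-tib42 (-2.94) and TAF-tib6 (-2.91). Il6 was below all 3, by -1.23, -2.66 and -2.14. Mela exceeded TAF-tib6 by 5.15 but TAF-el4 and TAF-tib42 by 0.64 and 0.25, and Ifi202b was above TAF-el4 (2.63) and TAF-tib42 (2.64) and below TAF-tib6 (-2.08). Pdgfc in TAF-tib48 was above TAF-tib6 (0.59), below TAF-tib42 (-0.45) and not called against TAF-el4 (0.10, adjusted p = 0.299).

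**Figure D4:**
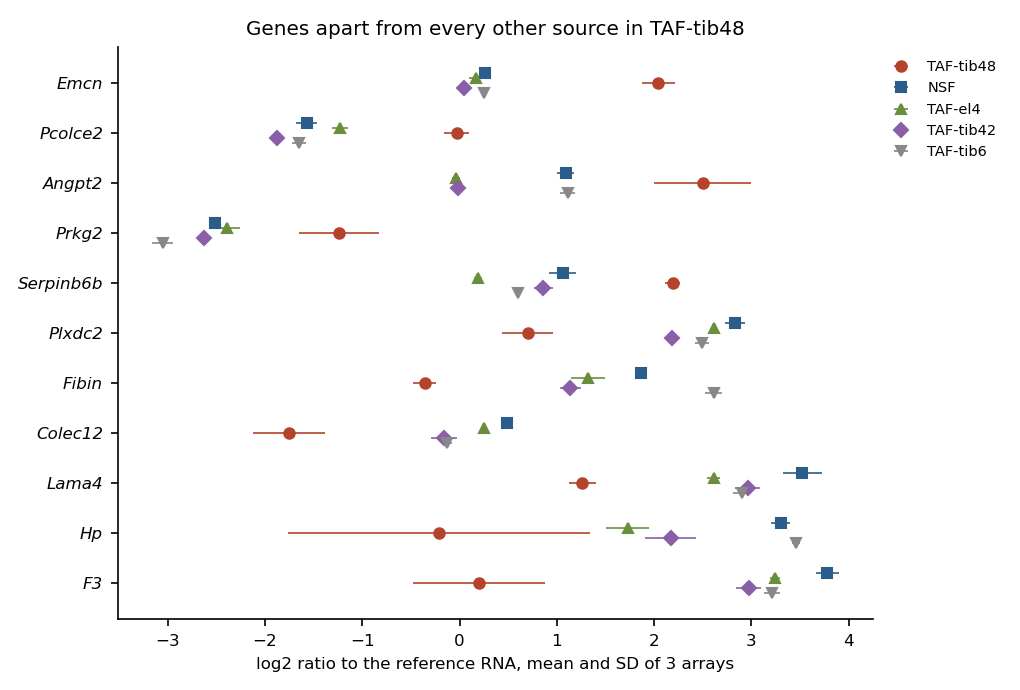
Log2 ratio to the reference RNA (x axis) of the named genes highest or lowest in TAF-tib48 against every other source, as mean and SD of 3 arrays per source. Red circles (TAF-tib48) lie to the right of all other symbols for the genes from Emcn to Serpinb6b and to the left for those below, with the widest SD for Hp (1.55).

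Replicate 3 of TAF-tib48 departed from replicates 1 and 2. It lay 1 or more on the log2 scale from the mean of the other 2 for 16 genes, 15 of them above it, against 0 to 3 genes for each of the other 14 arrays of the study. Among the 258 genes lower by at least 2-fold with a value on every TAF-tib48 array, replicate 3 was the array nearest to NSF for 210 (81.4%), replicate 2 for 26 and replicate 1 for 22. The median distance of these genes from the NSF mean was -1.52 and -1.56 on replicates 1 and 2 and -1.28 on replicate 3. For the 43 higher genes replicate 3 was nearest for 24 (55.8%). With replicate 3 left out 255 of the 259 lower and 40 of the 43 higher genes still differed by at least 2-fold.

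Among genes with a symbol, Hp was furthest from its mates on replicate 3, by 2.69, and without that array its difference from NSF was -4.40. Cpxm1 was at -0.03, -0.17 and 1.39 (NSF 3.52, 3.50 and 3.76), the thyroid hormone deiodinase Dio3 at 1.42, 1.07 and 2.70 (NSF 4.27, 4.10 and 4.49), Cxcl5 at 0.30, 0.07 and 1.56, C3 at -3.36, -3.28 and -2.01 and F3 1.18 above the mean of its mates. Each of these 6 moved towards NSF on replicate 3 and stayed below every NSF array. On the low side of replicate 3 were Cks1b (-0.43, -0.56 and -1.24) and Exo1 (-1.45, -1.28 and -2.13), genes of cell division and DNA repair. Kpna2 (-0.85, -0.47 and -1.39), the histone genes H2ac13 and H2ac15 and Prl2c5 were also on that side. By list, replicate 3 lay below the mean of its mates for 43 of 48 cell cycle genes (median -0.42) and above it for 34 of 38 interferon response (median 0.25) and 12 of 14 fibroblast marker genes (median 0.38), against a median of 0.00 over all genes. The acute phase genes, at a median of 0.12, were above in 14 of 17.

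**Figure D5:**
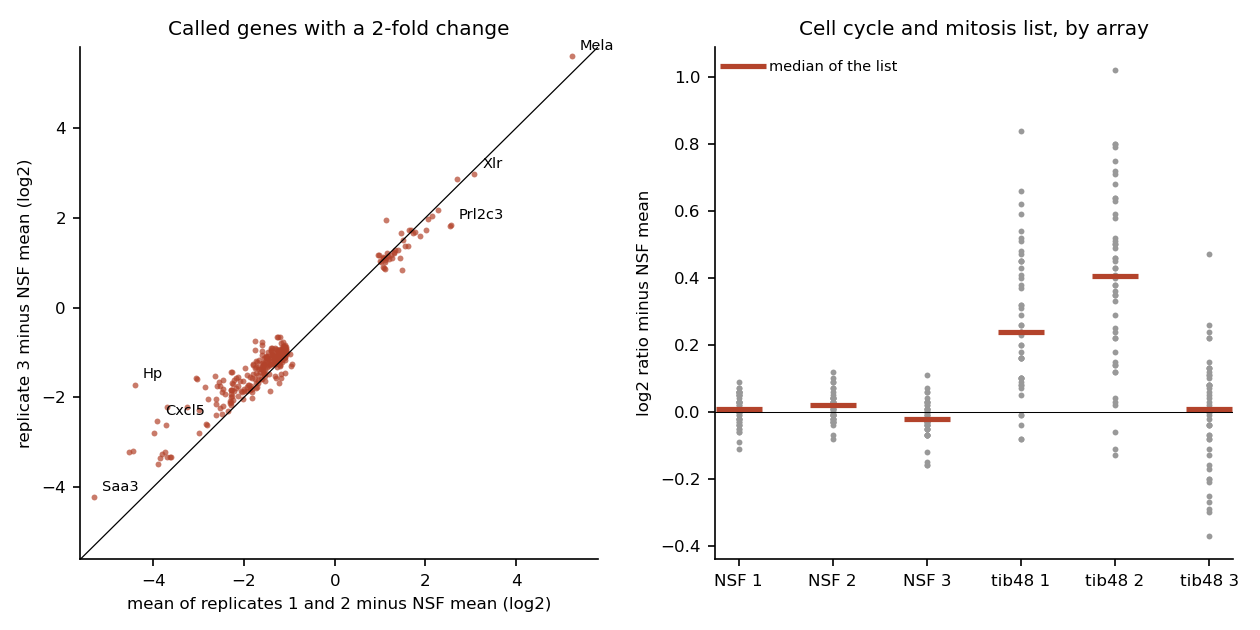
Left, TAF-tib48 replicate 3 minus the NSF mean (y axis) against the mean of replicates 1 and 2 minus the NSF mean (x axis), in log2, for the called genes with a 2-fold change, with the line of equality. Most points at the lower left lie above the line, Hp furthest. Right, log2 ratio minus the NSF mean of the 48 cell cycle genes on each of the 6 arrays, with the median of the list as a red bar (0.24, 0.40 and 0.01 on the TAF-tib48 arrays).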

How the data were processed

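Expression was measured on 15 2-colour arrays, 3 for each of 5 sources. Spot intensity values were deposited by the authors as scanner output of Agilent Feature Extraction 8.5.1.1, per the file headers, although a protocol label names version 9.5. The authors' deposited log10 ratios and table of log2 values served as alternatives. From the mean and background intensities, log2 Cy5/Cy3 ratios were computed in limma 3.58.1 (R 4.3.3) with normexp (offset 50) and loess. A gene was represented by its brightest probe and tested where Cy5 was well above background on all 3 arrays of a source. All 15 arrays were fitted together with lmFit and eBayes and a mean per source, with Benjamini-Hochberg adjustment over 31253 genes, and the steps were tested on simulated data. Motif searches used RefSeq promoters.

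Named were the 12 highest and 12 lowest called genes with arrays that do not overlap, up to 4 members of each list in its main direction and 2 in the other, Pdgfc, Pdgfa and Vegfa, the 6 genes furthest from all sources in each direction and the 6 most deviant on TAF-tib48 replicate 3 in each direction. Names that are clones, predicted genes or accessions were passed over, and a few genes that met the rule are not reported here. Members and lists were chosen with earlier results of these data known.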

Additional observations from a re-analysis of the deposited data

Results flagged for a closer look

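Among the named genes reported, 4 differed from NSF by at least 2-fold in opposite directions in TAF-tib48 and another TAF source. Both differences were called, and the gap between them was tested directly in limma. Opposite signs with a smaller difference on either side were not listed. These contrasts share the NSF arrays. Angpt2 differed from NSF by 1.40 in TAF-tib48, by -1.14 in TAF-el4 and by -1.12 in TAF-tib42, so that TAF-tib48 lay above these sources by 2.54 (SE 0.149, adjusted p = 5.2e-10) and 2.52 (SE 0.149, adjusted p = 6.4e-10). The proliferin gene Prl2c3 differed from NSF by 2.32 in TAF-tib48 and by -2.64 in TAF-tib42, a gap of 4.96 (SE 0.137, adjusted p = 2.1e-14). Prl2c5 gave 2.30 and -2.94, a gap of 5.24 (SE 0.137, adjusted p = 9.3e-15).

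Ptgs2, the inducible cyclooxygenase, differed from NSF by -1.05 in TAF-tib48 and by 1.02 in TAF-el4, a gap of -2.07 (SE 0.0778, adjusted p = 1.4e-12).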

How the results depend on the processing

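The calls between TAF-tib48 and NSF numbered 8179 and fell to 2041 with the slide run as a block. That block is estimated from the few arrays that link the runs. Lost calls can reflect lower precision or a difference between runs, which cannot be told apart here. The count of genes changed at least 2-fold, 302, was 638 with the scanner's own ratio, 640 with the authors' deposited table and 502 from the Cy5 channel alone. The scanner's ratio and the authors' table correlated at 1 on every array, so they are not independent settings. The count of genes apart from every source, 1125, was 689 after median centring, 637 from the Cy5 channel alone and 374 with the slide run as a block. With 1 array left out at a time these counts ranged from 6358 to 7679, from 287 to 316 and from 865 to 1146. Deviations of TAF-tib48 and NSF arrays with the same replicate number correlated at r = 0.01, -0.038 and 0.168. Those of pairs with unlike numbers lay between -0.129 and 0.146. With the replicate number as a block the counts were 7887, 301 and 1077. With the slide run as a block the sign turned for Vim (-0.35), S100a4 (-0.17) and Vegfa (0.09), and from the Cy5 channel alone for Vegfa (0.03). The uncalled Acta2 turned with scaled log ratios (0.16), from the Cy5 channel alone (0.09) and with 1 array left out, where it ranged from -0.23 to 0.12. The cause was not tested. Signal over background limits faint genes, whose ratios depend on the background correction.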
